A study of Macaca mulatta with 24 samples.

Results

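The interleukin 1 family and its receptors were followed in the colon of rhesus macaques after total-body irradiation (TBI), the exposure of the whole animal to radiation. The members were the agonists IL1A, IL1B, IL18 and IL33, the antagonist IL1RN, the decoy receptor IL1R2 and the receptors IL1R1, IL1RAP, IL1RL1 and IL18R1, chosen by gene symbol. Probes by these symbols numbered 17 of the 43603 probes on the array and covered 9 of the 10 members, since no probe carried the name IL33. Of these probes 14 could be fitted, at least 1 for each of the 9 genes. The dimmest IL1RAP probe and the 2 dimmest IL1RL1 probes did not exceed background clearly on a single array.

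The study asked how gene expression in segments of the gut responds to TBI by dose and time, and only the colon was analysed here. Each of the 24 arrays held the RNA of 1 animal. Per the study's methods all were young adult males, irradiated animals received their dose as 1 gamma exposure from a cobalt-60 source, and RNA came from pieces of whole gut wall. The groups were 4 unirradiated controls, labelled day 4, with 4 animals each on days 4 and 7 after 6.7 Gy and after 7.4 Gy, and 2 animals per dose on day 12. The same 4 controls served all 6 comparisons, so values against control are not independent of each other.

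Interleukin 1α and interleukin 1β bind the receptor encoded by IL1R1, which needs the accessory chain IL1RAP to signal through MYD88 to NF-kB and switch on chemokine genes. IL1RN occupies the same receptor without signalling, and IL1R2 binds interleukin 1 but has no signalling domain. IL18 acts through IL18R1 and IL33 through IL1RL1, and in the gut these cytokines are known as early signals of tissue damage and inflammation.

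Values are log2 signals relative to the 75th percentile of the same array, so 0 is that percentile and each step of 1 is a 2-fold difference. From 66.7% to 85.0% of the probes on each array were well above background, and arrays of a group correlated across probes at 0.96 to 0.98. A gene was called when its brightest probe passed an adjusted p of 0.05 (limma, Benjamini-Hochberg over all probes) with at least a 2-fold change. Levels of different probes are not compared, since brightness also depends on the probe. The 6 slides, 4 array positions and 2 scan days were treated as batches. All controls lay in position 1, as did replicates 1 and 2 of 6.7 Gy day 4, and all of 7.4 Gy day 4 lay in position 2. Days 7 and 12 lay in positions 3 and 4, so differences between these days and the controls or day 4 cannot be told apart from array position.

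IL1A rose on day 4 at both doses, and IL1B and IL1RAP rose at 7.4 Gy. The other 6 measured members were not called in any group. Of the 9 members, 1 was called at 6.7 Gy, where 4.24% of the 13460 named genes were called, and 3 were called at 7.4 Gy, where 8.22% were. Without the fold threshold the counts were 2 and 4, since IL1RAP at 6.7 Gy and IL18, which was lower, at 7.4 Gy passed the adjusted p alone. The median log2 change of the members was 0.55 at 6.7 Gy and 0.26 at 7.4 Gy, against -0.04 and -0.02 over all genes. On days 7 and 12 no member was called at either dose by limma, where 0.386% and 0.498% of genes were called on day 7 and 0.0149% at each dose on day 12. At an unadjusted p under 0.05 limma gave 1 and 2 members on day 7 at 6.7 and 7.4 Gy, and 0 and 1 on day 12. The share of all genes at that unadjusted level was not counted, so these counts are not read as a result about the members. When array position and scan day entered the fit as blocks at once, the count at 7.4 Gy on day 4 went from 3 to 0 while that at 6.7 Gy was 1 in both fits. Neither for that fit nor without the fold threshold was the share of all genes called counted. The loss at 7.4 Gy is therefore not read as particular to the members. The arrays of a group and of the controls did not overlap for 2 and 4 of the 9 members on day 4 at 6.7 and 7.4 Gy, where this held for 17.7% and 26% of the genes. It held for 1 and 2 members on day 7, beside 8.14% and 6.69% of genes, and for 2 and 3 members on day 12, beside 18.6% and 16.2%.

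**Figure D1:**
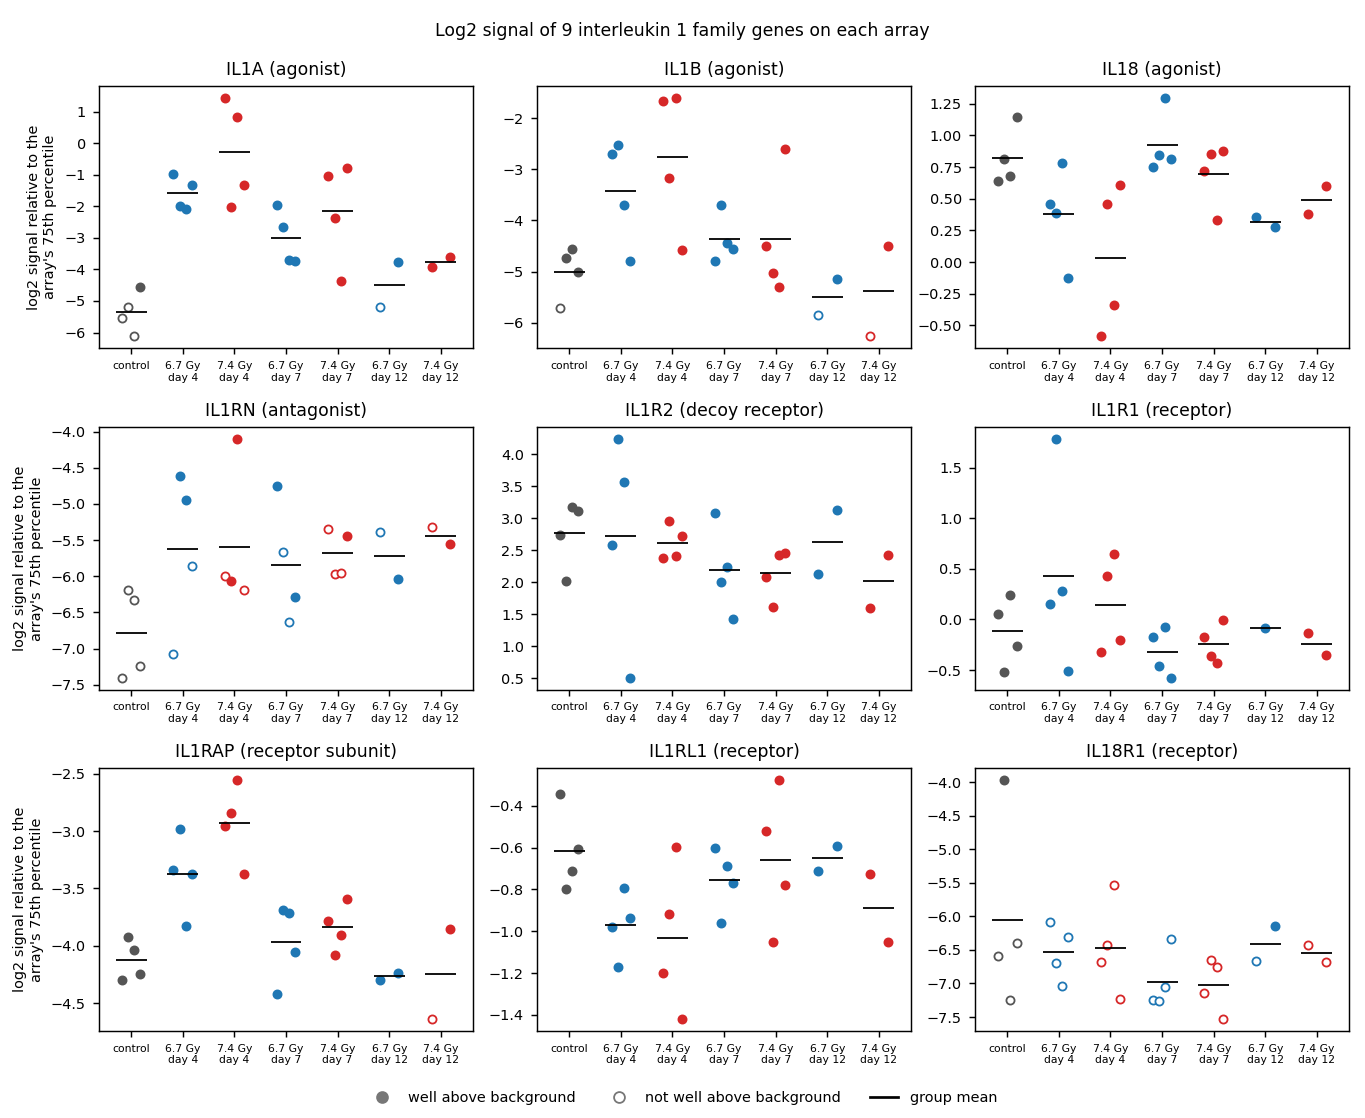
Log2 signal relative to the array's 75th percentile (y axis, a separate scale for each gene) of the brightest probe of 9 interleukin 1 family genes in the controls and the 6 irradiated groups (x axis). Each point is 1 animal, open points were not well above background and lines are group means. All day 4 and day 7 points of IL1A lie above the 4 controls, while IL1R2 stays between 0.50 and 4.24 on every array with overlapping groups.

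IL1A, the agonist that damaged cells release, had the largest changes of the 9 members. Its brightest probe, A_01_P1682916, read -5.53, -5.20, -6.12 and -4.55 in the 4 controls, and only 1 of these arrays was well above background. On day 4 it read -0.98, -1.98, -2.09 and -1.32 after 6.7 Gy. It read 1.44, -2.02, 0.83 and -1.32 after 7.4 Gy. All 8 irradiated animals stood above all controls, and after 7.4 Gy replicates 1 and 3 stood clearly above replicates 2 and 4. The log2 change was 3.76 ± 0.75 (SE) at 6.7 Gy, a 13.5-fold rise (limma adjusted p = 0.00517), and 5.08 ± 0.75 at 7.4 Gy, a 33.9-fold rise (adjusted p = 0.000191). The second IL1A probe, A_01_P1671976, rose 5.87-fold at 6.7 Gy, with a limma adjusted p of 0.0326, and 15.9-fold at 7.4 Gy, with an adjusted p of 0.00101. Because most control arrays were near background, the size of these folds is imprecise, and normexp background correction gave log2 changes of 1.68 and 2.94, both still called.

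On day 7 the same IL1A probe read -1.94, -2.65, -3.69 and -3.74 after 6.7 Gy. It read -1.03, -2.36, -4.37 and -0.79 after 7.4 Gy. Every day 7 animal was still above every control on this probe. The log2 change was 2.35 ± 0.75 after 6.7 Gy, or 5.08-fold, with a limma adjusted p of 0.23, and 3.21 ± 0.75 after 7.4 Gy, or 9.27-fold, with an adjusted p of 0.0607, so neither was called. IL1A was called at 7.4 Gy on day 7 without replicate 3 of that group, and when probes had to be well above background on every array of at least 1 group. On day 12 it read -5.19 and -3.78 after 6.7 Gy and -3.91 and -3.60 after 7.4 Gy, where the first pair overlapped the controls and the second lay above them. The group means fell in the order 7.4 Gy day 4, 6.7 Gy day 4, 7.4 Gy day 7, 6.7 Gy day 7, 7.4 Gy day 12, 6.7 Gy day 12 and control, and the arrays of each neighbouring pair in that order overlapped.

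The rise of IL1A on day 4 was also seen within scan days and slides at both doses, and within an array position at 6.7 Gy alone. Within array position 1 the log2 difference from the controls was 3.87 for the 2 arrays of 6.7 Gy day 4 placed there. Within scan days 1 and 2 it was 3.66 and 3.86 at 6.7 Gy. All 7.4 Gy day 4 arrays were scanned on day 2, where the difference was 5.07. On the slides that held both groups it was 3.44 and 3.88 at 6.7 Gy, and 7.57 and 2.52 at 7.4 Gy. The slide differences at both doses, the scan day 1 difference at 6.7 Gy and every difference at 7.4 Gy set position 2 against the controls in position 1. They are therefore not free of array position. The scan day 2 difference at 6.7 Gy rests on the same 2 irradiated arrays as the one within position 1, and the scan day 1 difference on the same arrays as the slide differences. In the fit with position and scan day both as blocks the change was 4.22 at 6.7 Gy (limma adjusted p = 0.0301) and 6.35 at 7.4 Gy (adjusted p = 0.0808), so the call at 7.4 Gy was lost although the change was larger.

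IL1B, the agonist that caspase-1 cuts into its active form, had 1 probe, A_01_P1671971. It read -5.71, -4.73, -4.56 and -5.02 in the controls, of which 3 were well above background. Day 4 animals read -2.70, -2.52, -3.69 and -4.80 after 6.7 Gy. It read -1.67, -3.17, -1.60 and -4.58 after 7.4 Gy. In each dose group replicate 4 stood among the controls and the other 3 animals stood above them. The change was 1.58 ± 0.66 at 6.7 Gy, 2.99-fold, and was not called (limma adjusted p = 0.136), while 2.25 ± 0.66 at 7.4 Gy, 4.75-fold, was called (adjusted p = 0.0224). The call at 7.4 Gy was lost without control replicate 1 (change 2.01), without replicate 1 (1.89) or replicate 3 (1.86) of that group, with slide (2.16), scan day (2.12) or position and scan day (3.74) as blocks, under normexp background correction (1.03), and by the methods' t-test or with the groups compared alone (both 2.25). Day 7 animals were 1.55-fold above control at 6.7 Gy and 1.57-fold at 7.4 Gy with overlapping arrays, and the log2 changes of day 12 were -0.50 and -0.38. None of these 4 passed.

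IL18, an agonist made by the gut epithelium, moved the other way on day 4. Its brightest probe read 0.64, 0.82, 0.68 and 1.15 in the controls. It read 0.46, 0.39, 0.78 and -0.12 after 6.7 Gy and -0.59, 0.46, -0.34 and 0.61 after 7.4 Gy. All 4 animals at 7.4 Gy lay below all controls, though replicate 4 came close, and the 6.7-Gy group overlapped them. At 7.4 Gy IL18 fell by 0.79 ± 0.24 on the log2 scale, a 1.73-fold lower signal (limma adjusted p = 0.026), which is under the 2-fold threshold. Its second probe fell by 0.73 (adjusted p = 0.00487), again with all 4 animals below the controls. At 6.7 Gy the change was -0.45 (95% interval -0.95 to 0.05). Day 7 gave changes of 0.11 and -0.13 and day 12 gave -0.50 and -0.33 with both animals of each dose below the controls, none past the threshold.

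On day 4 markers of the colon epithelium were lower as well. The mean log2 signal of the 10 measured genes of that list ran from 4.81 to 4.95 in the controls, from 3.77 to 4.41 after 6.7 Gy and from 3.52 to 4.18 after 7.4 Gy. Of the 10 genes 3 and 5 were called lower and none higher, beside 4.24% and 8.22% of all genes called in either direction. By day 7 this list ranged from 4.92 to 5.0 after 6.7 Gy and from 4.73 to 4.98 after 7.4 Gy. Its part in the IL18 result was not tested, and in tissue RNA fewer cells of a type and less RNA per cell cannot be told apart.

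IL1RN, the receptor antagonist, stayed close to background. It was well above background on 9 of the 24 arrays and on none of the controls, which read -7.4, -6.20, -6.33 and -7.24. Day 4 animals read -7.08, -4.61, -4.94 and -5.86 after 6.7 Gy. It read -6.00, -6.07, -4.10 and -6.19 after 7.4 Gy. The 7.4-Gy animals lay above the controls by a small margin apart from replicate 3, and at 6.7 Gy replicate 1 lay among the controls. In each of these groups 2 of 4 arrays were well above background. The log2 changes of 1.17 (95% interval 0.08 to 2.26, limma adjusted p = 0.159) and 1.20 (0.11 to 2.29, adjusted p = 0.109) were not called. Set against the dimmest signal that counted as above background on each control array, or the probe's own value where higher, the irradiated means were 1.84- and 1.88-fold brighter. These values cover the controls' background and not the spread between animals. The irradiated means include arrays not well above background, so they are not lower bounds of the change. On days 7 and 12 the log2 changes lay between 0.95 and 1.35 (adjusted p between 0.439 and 0.787), with 1 or 2 arrays of each group above background, and the size of a change in IL1RN was not resolved at any time.

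IL1R2, the decoy receptor, was well above background on all 24 arrays and did not follow the agonists. It read 2.74, 2.02, 3.18 and 3.11 in the controls. On day 4 it read 2.58, 4.24, 3.57 and 0.50 after 6.7 Gy and 2.38, 2.95, 2.41 and 2.73 after 7.4 Gy. The 6.7-Gy animals spread widely around the controls, and the 7.4-Gy animals lay within the control range. The log2 changes were -0.04 (95% interval -1.20 to 1.12) and -0.15 (-1.30 to 1.01). Day 7 gave -0.58 (-1.73 to 0.58) and -0.62 (-1.78 to 0.53), and day 12 gave -0.14 and -0.75. The limma adjusted p lay between 0.736 and 0.985 over the 6 groups, and intervals of this width leave room for more than a 2-fold change in either direction on day 4.

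**Figure D2:**
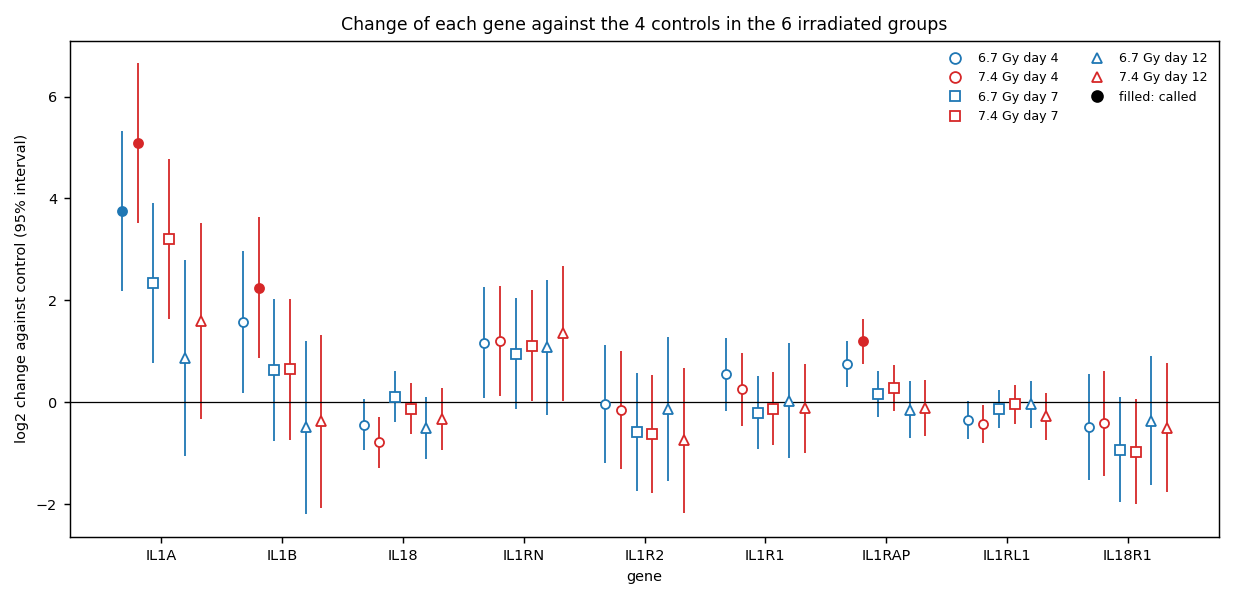
Log2 change against the 4 controls (y axis) with its 95% interval for 9 genes (x axis) in the 6 irradiated groups, marked by dose (colour) and day (shape). Filled symbols were called, which are IL1A on day 4 at both doses and IL1B and IL1RAP on day 4 at 7.4 Gy.

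IL1RAP, the accessory chain that IL1R1 and the IL33 receptor share, was the receptor gene that rose. Its brightest probe, A_01_P1759481, read -4.30, -3.92, -4.03 and -4.25 in the controls. On day 4 it read -3.34, -2.98, -3.82 and -3.37 after 6.7 Gy. It read -2.96, -2.84, -2.56 and -3.37 after 7.4 Gy. All 8 irradiated animals lay above all controls, with replicate 3 of 6.7 Gy closest to them. The change was 0.75 ± 0.22 at 6.7 Gy, 1.68-fold (limma adjusted p = 0.0345), under the 2-fold threshold, and 1.19 ± 0.22 at 7.4 Gy, 2.29-fold (adjusted p = 0.000937). The log2 difference from the controls was 0.97 within array position 1 at 6.7 Gy. At 7.4 Gy it was 1.21 within scan day 2, where array position still differed from that of the controls. The call at 7.4 Gy was lost under normexp background correction (0.57, adjusted p = 0.0368, under 2-fold), with position and scan day as blocks (1.53, adjusted p = 0.128) and when every probe had to be called.

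The probes of IL1RAP differed in size of change but not in direction on day 4. At 7.4 Gy the second probe rose 1.70-fold (limma adjusted p = 0.0285) and the last of the 3 fitted probes 3.62-fold (adjusted p = 0.00508), with all animals above the controls on each. At 6.7 Gy they were 1.59-fold (adjusted p = 0.0781) and 2.43-fold (adjusted p = 0.0623) higher. The last of these probes is dim and was well above background on 1 of the 4 controls. On days 7 and 12 the brightest probe gave log2 changes of 0.15, 0.29, -0.14 and -0.12, and arrays overlapped the controls in each group.

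IL1R1, the receptor that both interleukin 1 agonists use, was not called. On its brightest probe the controls ranged from -0.51 to 0.24, day 4 after 6.7 Gy from -0.51 to 1.78 and day 4 after 7.4 Gy from -0.32 to 0.65. The highest value, 1.78, belonged to replicate 2 of 6.7 Gy, the animal that also had the highest IL1R2 signal. The log2 changes were 0.55 (95% interval -0.17 to 1.26) and 0.26 (-0.46 to 0.97), and between -0.20 and 0.03 on days 7 and 12. The spot of replicate 1 of 6.7 Gy day 12 was an outlier spot and left out, so that value rests on 1 animal.

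IL1RL1, the IL33 receptor, was bright on 1 probe and varied little. The controls ranged from -0.80 to -0.34. On day 4 the range was -1.17 to -0.79 after 6.7 Gy and -1.42 to -0.60 after 7.4 Gy. Of the 8 day 4 animals 6 stood below the lowest control, and the other 2 lay within the control range. The changes of -0.36 ± 0.18 (limma adjusted p = 0.218) and -0.42 ± 0.18 (adjusted p = 0.104) were not called, nor were those of later days, which lay between -0.27 and -0.04. IL18R1, the IL18 receptor, was well above background on 2 of 24 arrays, 1 control at -3.97 and 1 animal of 6.7 Gy day 12 at -6.15. Its changes were not resolved from background.

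The agonists were then set against the inhibitors on each array, as the log2 signal of IL1A or IL1B minus that of IL1RN or IL1R2. Array scaling cancels in this difference, which shows unequal change and not which gene is more abundant. IL1A minus IL1R2 was -8.27, -7.22, -9.30 and -7.66 in the controls. On day 4 it was -3.56, -6.22, -5.66 and -1.82 after 6.7 Gy and -0.94, -4.98, -1.58 and -4.05 after 7.4 Gy. On day 7 it was -5.02, -4.64, -5.93 and -5.16 after 6.7 Gy and -3.11, -3.97, -6.79 and -3.25 after 7.4 Gy. All 16 irradiated animals of these days stood above all controls on these brightest probes, in favour of the agonist. The second IL1A probe, which overlapped the controls on day 7, is not part of these values. The share of other gene pairs that separate in this way was not counted. The differences from control were 3.80, 5.23, 2.92 and 3.84, and 1.56, 2.98, 1.29 and 1.90 under normexp background correction, with IL1A well above background on 1 of the 4 controls. Each had a two-sided exact permutation p of 0.0286, the smallest that 4 against 4 arrays can give, and 0.0914 after Benjamini-Hochberg adjustment over the 16 tests of this family. On day 12 the difference from control was 1.01 at 6.7 Gy and 2.35 at 7.4 Gy.

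IL1A minus IL1RN moved the same way with more overlap. It was 1.88, 1.0, 0.21 and 2.69 in the controls. On day 4 it was 6.10, 2.63, 2.85 and 4.54 after 6.7 Gy and 7.44, 4.04, 4.93 and 4.87 after 7.4 Gy. The 7.4-Gy animals lay above all controls (difference 3.88, exact permutation p = 0.0286, adjusted 0.0914), and at 6.7 Gy replicate 2 fell just below the highest control (difference 2.59, exact p = 0.0571, adjusted 0.102). Day 7 gave differences of 1.39 and 2.10 (exact p = 0.0571 and 0.0857), and day 12 gave -0.21 and 0.24. Among the controls IL1RN was at background throughout and IL1A exceeded it on 1 array, so this difference is limited by background there.

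For IL1B the balance was less clear. IL1B minus IL1R2 was higher than control by 1.62 and 2.39 on day 4 and by 1.21 and 1.27 on day 7, with exact permutation p between 0.0571 and 0.114. IL1B minus IL1RN differed from control by 0.41 and 1.05 on day 4 and by -0.32 and -0.47 on day 7, with exact permutation p between 0.114 and 0.857. On day 12 IL1B minus IL1RN was -0.46 and 0.89 after 6.7 Gy and -0.94 and 1.06 after 7.4 Gy, all below the controls at 1.47 to 2.22. This gap is limited by background, since IL1RN was at background on every control and both genes were on replicate 1 of each day 12 group. With 2 animals per group no exact test can pass there, since the smallest p is 0.0667. None of the 16 differences of days 4 and 7 passed after adjustment, which with 4 arrays per group needs many tests at the smallest exact p at once.

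**Figure D3:**
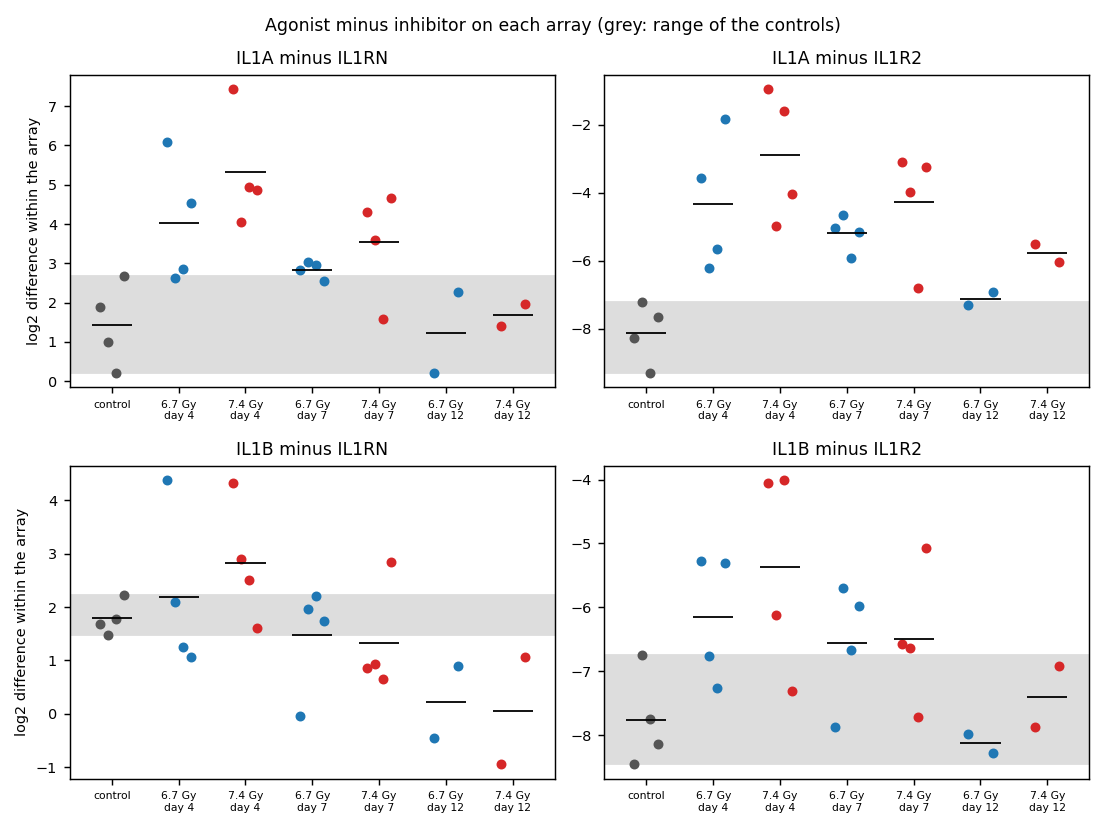
Log2 signal of an agonist minus that of an inhibitor on the same array (y axis) in the controls and the 6 irradiated groups (x axis), with 1 point per animal, lines for group means and a grey band for the range of the 4 controls. For IL1A minus IL1R2 all 16 points of days 4 and 7 lie above the band, while for IL1B minus IL1R2 points of each day 4 and day 7 group lie within it. All 4 control values of IL1RN were at background, which limits both panels that use it.

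Dose was compared within each day, and no member differed between 7.4 and 6.7 Gy on days 4, 7 or 12 by limma, where 0% of the genes were called in each case. On its brightest probe no member reached an unadjusted p under 0.05 either. IL1A was higher by 1.32 at 7.4 Gy on day 4 (95% interval -0.25 to 2.89) and IL1RAP by 0.45 (-0.005 to 0.90). IL1B was higher by 0.67 on day 4 (-0.72 to 2.06) and by 0.01 on day 7 (-1.37 to 1.40). These intervals include 0 and also changes above 2-fold for both agonists.

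Time was compared over both doses. From day 4 to day 7, IL1A fell by 1.64 ± 0.53 on the log2 scale (3.12-fold lower, limma adjusted p = 0.0286), and it was the 1 member of 9 called, where 5.04% of genes were called. IL1B fell by 1.27 and missed the threshold (adjusted p = 0.052). IL1RAP fell by 0.75 (adjusted p = 0.00156) and IL18 rose by 0.61 (adjusted p = 0.0129), each past the adjusted p but under 2-fold. From day 4 to day 12, IL1A was 9.12-fold lower (adjusted p = 0.00176), IL1B 5.09-fold lower (adjusted p = 0.00623) and IL1RAP 2.14-fold lower (adjusted p = 0.000432), which made 3 of 9 members where 7.64% of genes were called. For IL1A and IL1RAP all 4 day 12 animals lay below all 8 day 4 animals. For IL1RAP the margin was small, with the highest day 12 value at -3.85 and the lowest day 4 value at -3.82. The share of all genes separated in this way between these days was not counted. For IL1RN no fall was resolved. Its log2 differences were -0.15 (95% interval -0.92 to 0.61) from day 4 to day 7 and 0.03 (-0.91 to 0.97) to day 12. IL1RN was well above background on 4 of 8 arrays of day 4, 3 of 8 of day 7 and 2 of 4 of day 12. A fall could therefore be hidden by background, and these values do not show that IL1RN differed from the agonists in its course. The IL1A call between days 4 and 7 was lost when replicate 1 of 6.7 Gy day 4 (-1.54), replicate 1 (-1.36) or 3 (-1.46) of 7.4 Gy day 4, replicate 3 (-1.53) or 4 (-1.52) of 6.7 Gy day 7, or replicate 3 of 7.4 Gy day 7 (-1.27) was left out. Without replicate 1 of 7.4 Gy day 12 the calls of IL1B (-1.91) and IL1RAP (-0.90) at day 12 were lost.

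Other genes of the pathway were taken from a list of 73, of which 60 were measured. On day 4, 12 were higher at 6.7 Gy and 17 at 7.4 Gy, and none was lower. Over all 13460 named genes, 4.24% and 8.22% were called in either direction. Genes listed as targets of interleukin 1 signalling made up most of these pathway calls, with 11 of 23 higher at 6.7 Gy and 12 of 23 at 7.4 Gy. Their median log2 change was 1.33 and 1.30. The list was chosen with earlier results of these data known, and which signal raised these genes was not tested. Among 12 inflammasome and processing genes 1 and 4 were higher, among 21 receptor signalling genes 0 and 1, and among 4 other family genes none. The median over all 60 was 0.38 at 6.7 Gy and 0.53 at 7.4 Gy. With array position as a block the count at 7.4 Gy was 10, and with scan day added it was 3, against 12 and 9 at 6.7 Gy. The share of all genes called in these fits was not counted.

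The chemokines led the target genes. CXCL8, the main attractant of neutrophils, was 61.0-fold higher at 6.7 Gy (95% interval 20.2 to 184) and 55.6-fold at 7.4 Gy (18.4 to 168), sizes that are imprecise because 1 of the 4 control arrays was well above background. The related chemokines CXCL1 (11.2- and 16-fold), CXCL2 (15.1- and 20.1-fold) and CXCL3 (8.13- and 10.9-fold) rose at both doses. CCL20, which attracts dendritic cells and lymphocytes, rose 9.18- and 11.5-fold, and CCL2, which attracts monocytes, 3.82- and 5.30-fold. BIRC3, an inhibitor of cell death that NF-kB switches on, rose 2.52- and 3.84-fold, and NLRC4, a sensor that activates caspase-1, 3.83- and 6.62-fold. All animals of both dose groups lay above all controls for each of these 8 genes, and the limma adjusted p ran from 3.01e-05 to 0.0354. The 8 were picked as called at both doses with the largest mean change, which favours such a separation. Arrays did not overlap, in either direction, for 17.7% of all genes at 6.7 Gy and 26% at 7.4 Gy.

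On day 7 against control, CXCL8 was called at 6.7 Gy (11.8-fold, limma adjusted p = 0.0486) and CXCL2 at 7.4 Gy (6.79-fold, adjusted p = 0.0196), which were the only pathway calls, and on day 12 there were none. Over all named genes, 0.386% and 0.498% were called on day 7, and 0.0149% at each dose on day 12. From day 4 to day 7, 10 of the 60 pathway genes fell and none rose, where 5.04% of genes were called. From day 4 to day 12, 15 fell and none rose, where 7.64% of genes were called.

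IL18BP, the soluble inhibitor of IL18, was 1.87-fold higher at 7.4 Gy on day 4 with all animals above the controls (limma adjusted p = 0.0253), under the 2-fold threshold, and 1.23-fold higher at 6.7 Gy (adjusted p = 0.534). IL18RAP, the accessory chain of the IL18 receptor, gave log2 changes of 0.66 (adjusted p = 0.422) and 0.87 (adjusted p = 0.22) on day 4. No probe of IL1RL2 or IL36RN passed the filter and none was named SIGIRR, so these inhibitors and receptors were not analysed here.

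**Figure D4:**
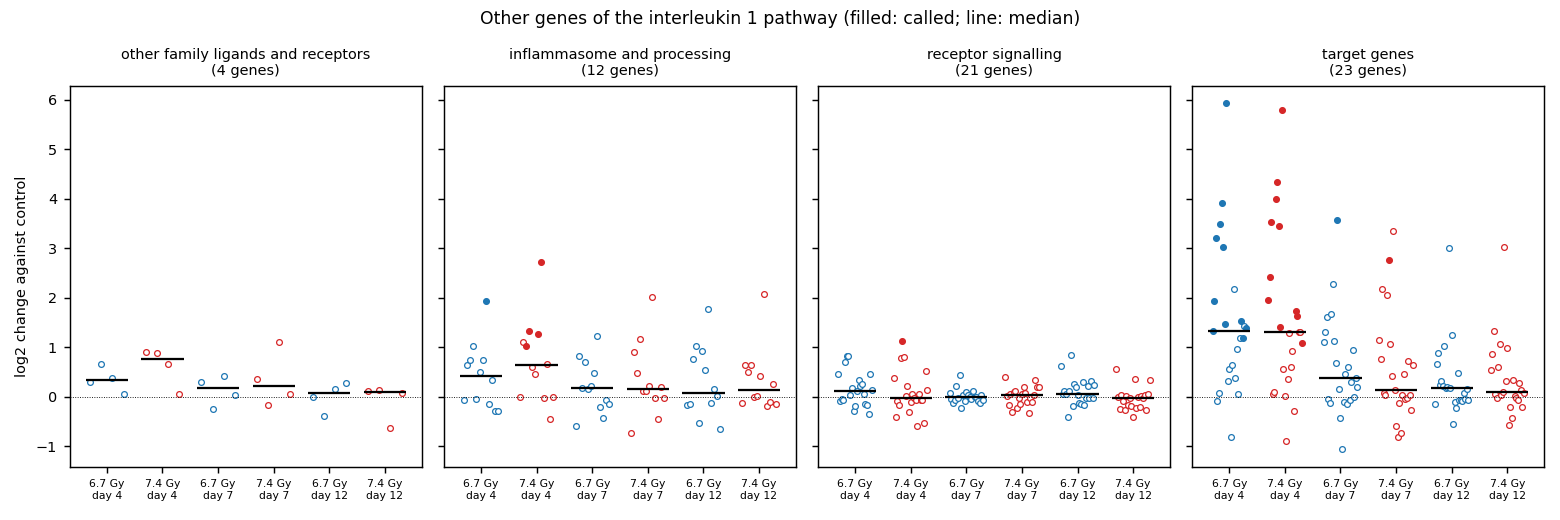
Log2 change against control (y axis) of 60 other genes of the pathway in 4 roles (panels) for the 6 irradiated groups (x axis), with 1 point per gene, filled where called, and lines for medians. Filled points are mostly day 4 target genes, 11 at 6.7 Gy and 12 at 7.4 Gy.

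Genes with the most similar course were found by the root mean square difference of the 6 log2 changes against control, among all named genes. These courses share the controls, and closeness says nothing of a shared function. Nearest to IL1A were SCEL, which encodes sciellin (0.23), the chemokine CCL23 (0.41) and CXCL2 (0.43). For 6.7 and 7.4 Gy, the log2 changes of SCEL were 3.90 and 4.88 (day 4), 2.56 and 3.07 (day 7) and 0.65 and 1.20 (day 12). Nearest to IL1B were the calcium-binding protein gene S100A9 (0.23), PNP, a purine salvage enzyme (0.23), and IDO1, which degrades tryptophan (0.25). Nearest to IL1RAP were the kinase MAP4K4 (0.06), the cyclin CCND1 (0.07) and NACC2 (0.07), each between 0.68 and 0.87 at 6.7 Gy and between 1.05 and 1.21 at 7.4 Gy on day 4.

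Lists of markers of cell types were measured beside these cytokines on day 4, when 4.24% of all named genes were called at 6.7 Gy and 8.22% at 7.4 Gy. The mean log2 signal of 6 measured neutrophil markers, of 10 listed, ran from -3.53 to -3.22 in the controls, from -3.24 to -1.57 after 6.7 Gy and from -3.27 to -1.15 after 7.4 Gy. Of these genes 0 were called higher at 6.7 Gy and 2 at 7.4 Gy. In the list S100A8 rose from a mean of -5.02 to -1.41 at 7.4 Gy and S100A9 from -1.63 to 0.60, while the mean of the receptor gene CSF3R was -1.77 in the controls and -2.19 there, and that of CXCR1 was -3.28 and -3.73. No probe of MPO passed the filter. Monocyte and macrophage markers, 9 of 12 measured, ran from 0.36 to 0.67 in the controls, 0.59 to 1.16 after 6.7 Gy and 0.80 to 1.51 after 7.4 Gy, with 1 and 2 called higher. Fibroblast markers, 9 of 9 measured, ran from 0.94 to 1.64, 1.08 to 2.13 and 1.97 to 2.52, with 0 and 4 called higher. Endothelium markers, 6 of 7 measured, had 0 called higher at 6.7 Gy and 1 at 7.4 Gy. For mast cells 6 of 7 markers, for T and NK lymphocytes 9 of 10 and for smooth muscle 3 of 6 were measured. None of these was called at either dose on day 4. The part of these lists in the IL1A, IL1B and IL1RAP results was not tested.

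**Figure D5:**
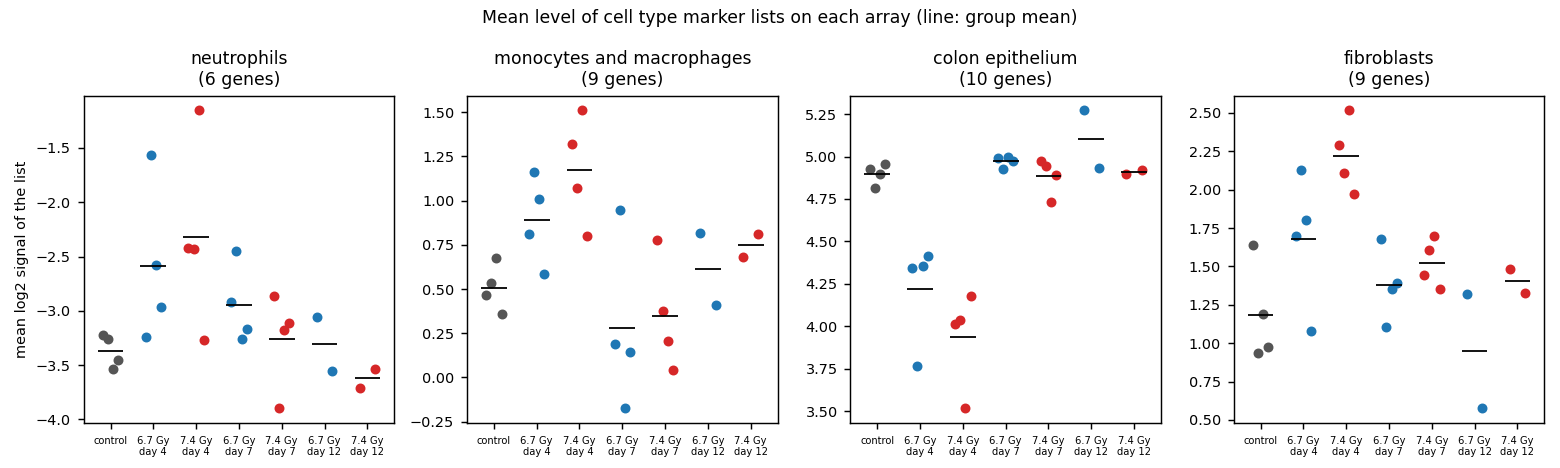
Mean log2 signal (y axis, a separate scale for each list) of 4 lists of cell type markers in the controls and the 6 irradiated groups (x axis), with 1 point per animal and lines for group means. On day 4 all animals lie below the controls for the colon epithelium list, and at 7.4 Gy all lie above them for the monocyte and macrophage and the fibroblast lists.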

How the data were processed

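Colon RNA of 24 animals was hybridised to 1-colour Agilent rhesus arrays, 1 per animal. Per the file headers the authors extracted spot intensities with Feature Extraction 11.0.1.1, which subtracts background. The deposited scanner files hold these intensities before normalization between arrays, and a normalized table that the authors deposited gives log2 values centred on each probe's median. Samples were grouped by dose and day from the labels, where 1 text label named another last day and the sample labels were followed. Control spots were left out, as were outlier spots (24 to 712 per array), and repeated spots gave 1 mean per probe. Tests used the processed signal on the log2 scale, less the 75th percentile of its array. No spot was saturated, and the number of arrays limits the precision.

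Probes well above background on at least 2 of 24 arrays entered, of which 38214 could be fitted. Names came from the deposited table for 18640 probes and from a RefSeq table by accession or gene number for 3268, and no coordinates are given. A gene was represented by its brightest probe. A model with 1 mean per group was fitted by lmFit, contrasts.fit and eBayes of limma 3.58.1 in R 4.3.3 with two-sided p-values adjusted by Benjamini-Hochberg over probes, and was tested on simulated data. Agonist minus inhibitor differences were tested by exact permutation of arrays.

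The members and the gene lists were chosen with earlier results of these data known. The text names every member, up to 8 pathway genes called at both doses of a day by the mean size of change, 5 inhibitors or receptors whatever their values, and for each called member the 3 genes closest in course. The marker genes named were chosen after their values were seen. Alternatives varied the background correction (normexp on the median signal), the scaling, the filter, the threshold and the test, added blocks for scan day, slide, array position or replicate number, or left out 1 array each.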

Additional observations from a re-analysis of the deposited data

Results flagged for a closer look

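The 4 calls between days were flagged because the irradiated groups of 2 times differed from each other. IL1A was lower by a log2 difference of -1.64 on day 7 (limma adjusted p = 0.0286) and -3.19 on day 12 (adjusted p = 0.00176) than on day 4. IL1B differed by -2.35 (adjusted p = 0.00623) and IL1RAP by -1.10 (adjusted p = 0.000432) on day 12. Day and array position cannot be told apart in these 4 differences.

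Among 45 groups of 4 values of a member, 1 held an array far from the others. IL1RN on replicate 3 of 7.4 Gy day 4 read -4.10, and the next highest array of that group read -6.00. Chance flags about 1 in 20 such groups.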

How the results depend on the processing

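The calls of IL1A on day 4 at 6.7 Gy and of IL1A on day 12 against day 4 were kept under every alternative in which they could be fitted. Normexp background correction lowered the member counts to 1 at 7.4 Gy on day 4 and 1 on day 12 against day 4, where IL1A alone was called, and turned IL1B minus IL1RN on day 7 to 0.0497 at 6.7 Gy and 0.14 at 7.4 Gy. When position and scan day were blocks at once, an alternative chosen after seeing the data, no member was called at 7.4 Gy on day 4 (0) and 3 pathway genes were. With position alone 10 pathway genes were. Without the fold threshold 2 members were called at 6.7 Gy on day 4 and 3 on day 7 against day 4. The last count was 2 (IL1A and IL1B) with quantile normalization, median scaling, spike-in scaling and the filter on every array of 1 group, and 0 with the methods' t-test, the groups compared alone and slide as a block. That filter also called 1 member, IL1A, at 7.4 Gy on day 7. The methods' t-test called 6 pathway genes at 6.7 Gy on day 4. The share of all genes called was not counted under the alternatives, so a changed count is not read as particular to the members or the pathway.

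On day 7 the pathway count of 1 at 6.7 Gy became 0 with quantile normalization, spike-in scaling, normexp, no filter, every probe required, the methods' t-test, the groups alone, slide and scan day, and 2 with the stricter filter. At 7.4 Gy it became 2 with median scaling and the stricter filter, and 0 with normexp, the methods' t-test, the groups alone and slide. IL1RAP kept both its calls except under normexp, where the changes were 0.57 and -0.15, when every probe had to be called, under both blocks (7.4 Gy day 4), and without replicate 1 of 7.4 Gy day 12. The cause of these differences was not tested.

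Leaving out 1 array at a time gave 1 to 1 member at 6.7 Gy and 2 to 3 at 7.4 Gy on day 4, 0 to 1 at 7.4 Gy on day 7, 0 to 2 on day 7 against day 4 and 1 to 3 on day 12 against day 4. Pathway counts were 11 to 13 and 13 to 20 on day 4, and 0 to 1 at 6.7 Gy and 0 to 5 at 7.4 Gy on day 7. IL1B minus IL1RN went from -0.32 to 0.79 at 6.7 Gy on day 4 and from -0.56 to 0.18 at 6.7 Gy on day 7. Under no alternative run did an agonist minus inhibitor difference reach an adjusted exact permutation p under 0.05 (lowest 0.0653). With 16 tests that level needs many of them at the smallest exact permutation p of 0.0286 at once, so missing it reflects the few arrays as well.

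Replicate numbers are shared between groups, but arrays of the same number did not deviate together (r from -0.12 to 0.15), so they do not pair animals. With the replicate block the members called were 1 at 6.7 Gy and 3 at 7.4 Gy on day 4, and the pathway count at 7.4 Gy on day 7 was 2 in place of 1. Array position could be fitted as a block for day 4 against control and for the doses within a day alone. Spike-in scaling moved the median change of all probes against control up by 0.097 to 0.289 on the log2 scale, relative to the 75th percentile scaling, normexp moved it by -0.10 to 0.31, and members near background, IL1RN and IL18R1 above all, have imprecise changes.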
